A study of Mus musculus with 6 samples.

Results

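The genes described here are 10 genes through which haematopoietic stem cells hold on to, and move within, the bone marrow niche: the chemokine receptor gene Cxcr4, the integrin genes Itga4, Itga6, Itga9 and Itgb1, the hyaluronan receptor gene Cd44, the selectin ligand gene Selplg, the junction molecule gene Jam3, the guidance receptor gene Robo4 and the adhesion molecule gene Vcam1. They were chosen by gene name, not by a threshold on these values, but with earlier results of these data known. All 10 were found among the 55471 gene IDs of the expression table. Total RNA was sequenced from stem cells sorted as Lin- Kit+ Sca1+ CD48- CD150+ from mice of ETV6-RUNX1 genotype, a fusion gene of childhood B-cell precursor leukaemia whose expression is induced here with doxycycline. The uninduced group (n = 3 libraries) had no doxycycline and the induced group (n = 3 libraries) had doxycycline in the food for 2 weeks. Both groups carry the fusion genotype, and no library of doxycycline-fed mice without it was analysed here, so induction of the fusion and doxycycline itself cannot be told apart. The labels give neither the ages of the mice, nor the driver of the transgene, nor how many mice gave each library, so the p-values measure the spread between these libraries.

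Stem cells are kept in the marrow by soluble and fixed cues. CXCL12 made by stromal and endothelial cells acts on the receptor CXCR4, and integrins, which are pairs of an alpha and a beta chain, bind proteins of the matrix and of neighbouring cells. The beta chain encoded by Itgb1 is shared: with the Itga4 product it forms VLA-4, a receptor for VCAM-1 and fibronectin, with the Itga6 product a laminin receptor, and with the Itga9 product a receptor for VCAM-1, tenascin-C and osteopontin. CD44 binds hyaluronan, and the Selplg product, PSGL-1, carries the sugars that selectins recognise.

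In induced cells the gene of the shared beta chain fell on the deposited scale, while the genes of its main alpha partners had means above those of uninduced cells. Itgb1 fell from 66.1 ± 16.9 to 36.8 ± 6.33 TPM (SD, n = 3 each), where TPM is a length-corrected share of all transcripts in a library. Itga4 was at 29.5 ± 3.67 and 40.6 ± 3.88 TPM and Itga6 at 36.7 ± 7.63 and 44.7 ± 5.76 TPM (SD, n = 3 each). Neither alpha-chain gene passed the test on the deposited values. Once the libraries were brought to a common median both passed, and Itgb1 did not. These calls depended on single libraries, as given with each gene.

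The 5′ flanks of Itgb1, Itga4 and Cxcr4 are shown because these genes encode the shared chain that fell, its VLA-4 partner, whose mean was higher, and the receptor that gives niche retention its best-known signal. Promoter sequences were taken from RefSeq (GRCm38.p6), where 6 of the 10 genes were matched: Cd44, Cxcr4, Itga4, Itga9, Itgb1 and Robo4. Each line gives the 250 bases before the annotated start, read 5′ to 3′ on the gene's strand. Capitals mark the core motif bound by RUNX proteins, searched as TGTGGT and TGCGGT on both strands. The RUNX1 part of the fusion keeps the domain that binds this motif.
Itgb1, chr8:128685404-128685653, plus strand: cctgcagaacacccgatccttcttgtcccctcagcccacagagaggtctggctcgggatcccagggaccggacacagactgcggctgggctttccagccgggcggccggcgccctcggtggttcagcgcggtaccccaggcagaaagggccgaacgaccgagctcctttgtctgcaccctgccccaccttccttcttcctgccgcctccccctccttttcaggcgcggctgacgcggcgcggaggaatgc
Itga4, chr2:79255176-79255425, plus strand: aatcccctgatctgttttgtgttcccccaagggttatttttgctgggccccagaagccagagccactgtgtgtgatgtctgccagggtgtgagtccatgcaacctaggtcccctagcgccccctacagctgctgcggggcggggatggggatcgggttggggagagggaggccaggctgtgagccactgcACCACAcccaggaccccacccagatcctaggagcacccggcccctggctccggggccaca
Cxcr4, chr1:128592300-128592549, minus strand: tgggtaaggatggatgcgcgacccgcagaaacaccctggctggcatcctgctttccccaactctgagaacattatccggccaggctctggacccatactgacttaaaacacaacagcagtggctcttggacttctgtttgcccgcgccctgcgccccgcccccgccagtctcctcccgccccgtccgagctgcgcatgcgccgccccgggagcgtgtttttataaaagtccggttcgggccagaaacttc
The Itga4 window held TGTGGT once, on the strand opposite to the gene, where it reads ACCACA, starting 60 bases before the start. The windows of Itgb1, Cxcr4 and Cd44 held neither form. The same was true of Itga9 and Robo4. For Cxcr4, Itga9 and Robo4 the RefSeq start differs from the GENCODE start given for the gene, for Cxcr4 by a few bases upstream. The Itga9 window lies wholly inside the gene as GENCODE places it, so it is not a flank of that gene model, and the Robo4 window runs partly into the gene. Among 32851 RefSeq windows of the same length, 14.0% held TGTGGT, 5.1% held TGCGGT and 18.6% held either. A match describes letters only, and no binding was measured.

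Scale matters for each value that follows. Nuclear protein-coding genes took 26.6% to 32.9% of the TPM in uninduced libraries and 20.5% to 23.2% in induced ones, and the median log2 change of the 13470 genes tested was -0.35. With median-of-ratios scaling, which divides each library by a factor set by its median gene, the median change was 0.0032. Changes are therefore given on the deposited scale and after this scaling. On the deposited scale 1549 genes passed an adjusted p of 0.05 (174 higher and 1375 lower in induced cells), and after scaling 806 did (388 higher and 418 lower). Of the 10 genes, 8 had a mean of at least 1 TPM and were tested, and Vcam1 and Itga9 were below it. Of the 8, 1 passed on the deposited scale, Itgb1, against 11.5% of all tested genes. It was lower, against 10.2% of tested genes lower and 1.29% higher. An unadjusted p under 0.05 was found for 2 of the 8, against 27.9% of all tested genes. After scaling 2 of 8 passed, Itga4 and Itga6, both higher, against 5.98% of all tested genes in either direction, 2.88% higher and 3.1% lower. An unadjusted p under 0.05 was then found for 6 of the 8, against 21.8% of all tested genes. The median log2 change of the 8 was 0.25 on the deposited scale and 0.64 after scaling.

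In uninduced cells Itgb1 was the highest of the 10 genes, at 53.9 to 85.4 TPM, and its range did not meet that of Selplg, the next, at 43.8 to 50.4 TPM. Selplg, Itga6, Cd44 and Itga4 followed in that order, and each overlapped its neighbour. Cxcr4 (15.1 to 23.5 TPM) lay apart from Itga4 above it and from Robo4 (9.7 to 12.3 TPM) below it, and Robo4 and Jam3 overlapped. Itga9 and Vcam1 lay below all others. In induced cells the order was Itga6, Selplg, Itga4, Itgb1, Cxcr4 and Cd44, each overlapping its neighbour, then Robo4 and Jam3, then Vcam1 and Itga9. Itgb1 thus went from rank 1 to rank 4. The plot of TPM by library shows the 8 tested genes in every library above all values of Vcam1 and Itga9.

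**Figure D1:**
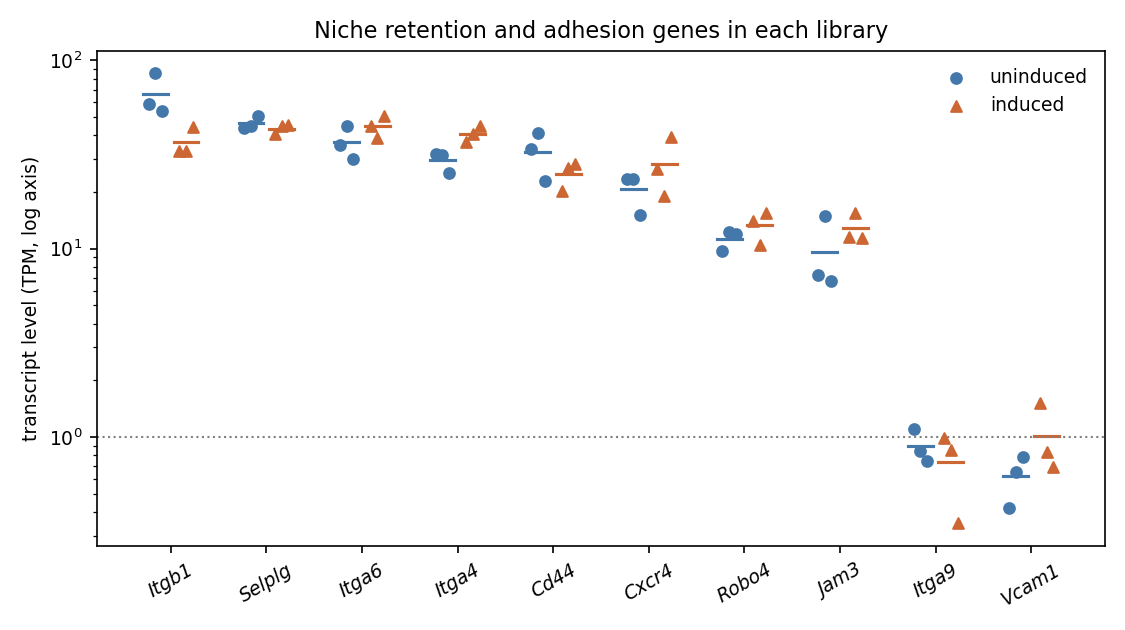
Transcript level in TPM on a log axis for each of the 10 genes, ordered by mean level. Circles are the 3 uninduced and triangles the 3 induced libraries, short bars are group means, and the dotted line marks the minimum mean of 1 TPM for testing. The Itgb1 circles (53.9 to 85.4 TPM) lie above its triangles (33.1 to 44.1 TPM), and the Itga4 triangles (36.8 to 44.6 TPM) lie above its circles (25.3 to 31.8 TPM).

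Itgb1 (ENSMUSG00000025809; chr8:128685654-128733200, plus strand, GRCm38, GENCODE M21) encodes the beta-1 chain. It was at 59.0, 85.4 and 53.9 TPM in uninduced replicates 1, 2 and 3 and at 33.1, 33.2 and 44.1 TPM in induced replicates 1, 2 and 3. The groups did not overlap, and uninduced replicate 2 was the highest library. Groups did not overlap for 2 of the 8 tested genes, Itgb1 (lower) and Itga4 (higher), against 33.1% of all tested genes, 28.2% lower and 4.83% higher. After median-of-ratios scaling 6 of the 8 had groups that did not overlap, against 27.9% of all tested genes. Cxcr4, Itga4, Itga6, Jam3 and Robo4 were higher, against 13.6%, and Itgb1 was lower, against 14.3%. The log2 change of Itgb1 was -0.81 (SE 0.23, 95% interval -1.32 to -0.31, limma adjusted p 0.046). After median-of-ratios scaling it was -0.41 (limma adjusted p 0.226). On the deposited scale the call held when uninduced replicate 3 was left out (limma adjusted p 0.0458) and was lost when any other library was. Without uninduced replicate 2 the change was -0.62 (limma adjusted p 0.124). The call was also lost without the expression filter (limma adjusted p 0.111) and without the variance trend (limma adjusted p 0.12).

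Markers of cycling cells moved in the same direction as Itgb1. Of 10 such genes 9 fell on the deposited scale and 7 after scaling, and their summed level was 194 to 234 TPM in uninduced and 24.2 to 34.6 TPM in induced libraries. Their part in the Itgb1 difference was not tested. In RNA from a sorted population, fewer cells of a kind and less RNA per cell cannot be told apart.

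Itga4 (ENSMUSG00000027009; chr2:79255426-79333123, plus strand) encodes the alpha-4 chain of VLA-4. It was at 31.8, 31.4 and 25.3 TPM in uninduced replicates 1, 2 and 3 and at 36.8, 40.4 and 44.6 TPM in induced replicates 1, 2 and 3. Every induced library was above every uninduced one. Its log2 change was 0.45 on the deposited scale (SE 0.20, 95% interval 0.01 to 0.89, limma adjusted p 0.169), which did not pass. After median-of-ratios scaling Itga4 rose by 0.85 (95% interval 0.48 to 1.22, limma adjusted p 0.0202). That call held without uninduced replicate 1 (limma adjusted p 0.0455) and without induced replicate 1 (limma adjusted p 0.0487), and was lost when any other library was left out, at limma adjusted p up to 0.0804.

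Cerkl, a protein-coding gene on the opposite strand, overlaps Itga4. Whether strand was used in counting is not given in the sources used here, so reads of the pair may not have been told apart where they overlap. Cerkl was at 0, 0.479 and 1.99 TPM in uninduced replicates 1, 2 and 3 and at 5.51, 2.38 and 2.46 TPM in induced replicates 1, 2 and 3. The groups did not overlap, and its part in the Itga4 difference was not tested.

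Itga6 (ENSMUSG00000027111; chr2:71745616-71858416, plus strand) encodes the alpha-6 chain, also known as CD49f. It was at 35.5, 44.9 and 29.8 TPM in uninduced replicates 1, 2 and 3 and at 44.9, 38.9 and 50.4 TPM in induced replicates 1, 2 and 3. The groups overlapped, with induced replicate 2 below uninduced replicate 2. On the deposited scale the log2 change was 0.29 (SE 0.21, 95% interval -0.19 to 0.77, limma adjusted p 0.414), and it was 0.15 without uninduced replicate 3 and 0.44 without uninduced replicate 2. After median-of-ratios scaling the groups no longer overlapped and Itga6 rose by 0.69 (95% interval 0.32 to 1.06, limma adjusted p 0.0441). Leaving out any single library ended this call, with limma adjusted p of 0.0538 to 0.134. The gene has 8 annotated transcripts, including forms with different cytoplasmic ends, and the table gives 1 value for all of them.

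Itga9 (ENSMUSG00000039115; chr9:118606690-118901003, plus strand), the third alpha-chain gene, was low in both groups. It was at 1.10, 0.846 and 0.751 TPM in uninduced and at 0.994, 0.857 and 0.348 TPM in induced replicates 1, 2 and 3. The groups overlapped, and the difference on the log2(TPM + 1) scale was -0.15. With no expression filter its limma adjusted p was 0.763. A processed pseudogene on the opposite strand within Itga9, Gm10157, was listed at a higher mean level of 15.3 TPM, so an Itga9 level this low is uncertain.

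The ratio of an alpha-chain gene to Itgb1 within a library does not depend on how libraries are scaled to each other. The ratios were computed after the values had been seen, and they all share the Itgb1 value of each library. The Itga4 to Itgb1 ratio was 0.538, 0.368 and 0.469 in uninduced replicates 1, 2 and 3 and 1.11, 1.22 and 1.01 in induced replicates 1, 2 and 3. Thus Itga4 was below Itgb1 in all 3 uninduced libraries and slightly above it in all 3 induced ones. By geometric means the ratio was 2.45-fold higher in induced cells, a log2 difference of 1.29 that lay between 1.14 and 1.42 with any single library removed. The Itga6 to Itgb1 ratio was 0.601, 0.525 and 0.552 in uninduced and 1.36, 1.17 and 1.14 in induced replicates 1, 2 and 3. It was 2.18-fold higher by geometric means, a log2 difference of 1.13 (1.05 to 1.18 with any single library removed). By exact permutation of the libraries (two-sided), p was 0.1 for either ratio, which is the floor for groups of this size, and 0.1 after adjustment over 9 ratios.

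Ratios to Itgb1 were higher without overlap for all 7 other tested genes of the group, against 26.2% of all tested genes that were higher so and 4.64% that were lower. Lower Itgb1 values in the induced libraries enter every one of these ratios, so they are not 7 separate results. Cd44 and Selplg themselves had lower mean TPM in induced cells. The log2 difference was 1.33 for Jam3, 1.24 for Cxcr4, 1.06 for Robo4, 0.74 for Selplg and 0.47 for Cd44. The remaining alpha-chain genes that pair with Itgb1 and could be tested did likewise. The ratio was 0.285 ± 0.0592 and 0.602 ± 0.0751 for Itga5, the fibronectin receptor chain, and 0.0708 ± 0.00675 and 0.126 ± 0.0491 for Itgav (SD, n = 3 each). Itga5 itself was at 18.4 ± 2.97 and 21.8 ± 1.06 TPM (SD, n = 3 per group, log2 change 0.25, limma adjusted p 0.502).

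**Figure D2:**
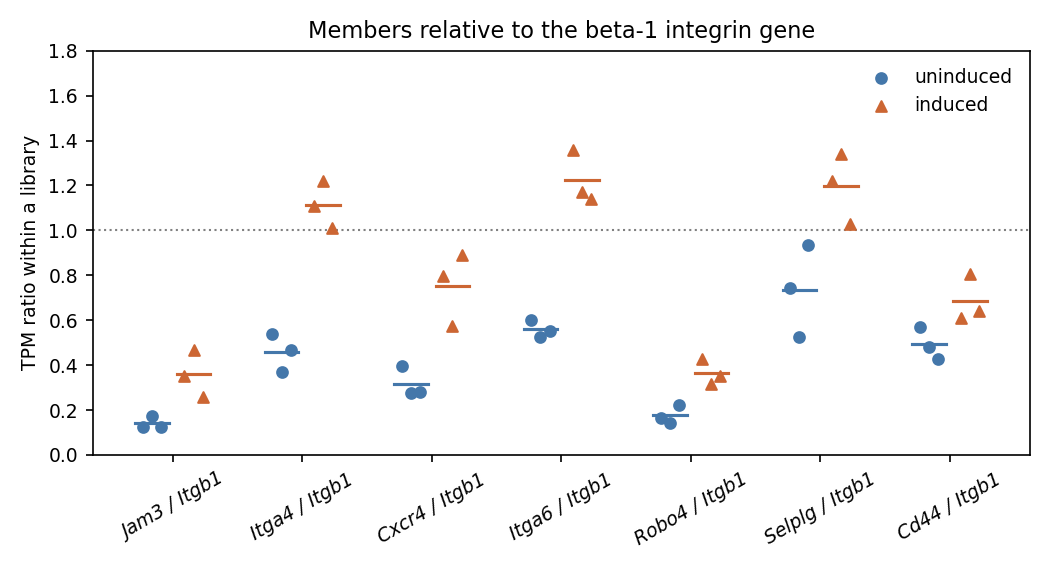
TPM of each tested gene divided by the TPM of Itgb1 in the same library, on a linear axis. Circles are the 3 uninduced and triangles the 3 induced libraries, short bars are group means and the dotted line marks a ratio of 1. Itga4, Itga6 and Selplg lie below 1 in the uninduced libraries and above 1 in the induced libraries.

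The alternative beta partners of these alpha chains were low. Itgb7, whose product pairs with the alpha-4 chain, was at 8.56, 5.74 and 1.95 TPM in uninduced and at 5.43, 3.41 and 3.31 TPM in induced replicates 1, 2 and 3, with overlapping groups (log2 change -0.21, limma adjusted p 0.802, and 0.12 after median-of-ratios scaling). Itgb4, whose product pairs with the alpha-6 chain, was at most 0.868 TPM in any library and was not tested.

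Cxcr4 (ENSMUSG00000045382; chr1:128588199-128592293, minus strand) encodes the receptor for CXCL12. It was at 23.5, 23.5 and 15.1 TPM in uninduced replicates 1, 2 and 3 and at 26.4, 19.0 and 39.2 TPM in induced replicates 1, 2 and 3. The groups overlapped, with induced replicate 2 below 2 uninduced libraries and induced replicate 3 the highest of all. The log2 change was 0.40 (SE 0.30, limma adjusted p 0.421) with a 95% interval of -0.27 to 1.07. After median-of-ratios scaling it was 0.79 (95% interval 0.22 to 1.36, limma adjusted p 0.106), without overlap and still short of the threshold. Cxcr4 did not pass under any alternative tried, and its change on the deposited scale was 0.14 without induced replicate 3 and 0.64 without induced replicate 2.

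The ligands of CXCR4 differed from each other. Cxcl12 was listed at 0 in all 3 uninduced libraries and at no more than 0.118 TPM in an induced one. Stromal cells, its main source, were represented by 10 marker genes that include Cxcl12 itself. Of the 10, 4 (Bglap, Col1a1, Lepr and Lum) were at 0 in all 6 libraries. The 10 summed to 1.16 to 6.71 TPM in uninduced and 1.32 to 1.55 TPM in induced libraries, and neither of the 2 that were tested passed. Mif, a cytokine that also binds CXCR4, fell from 145 ± 30.8 to 34.2 ± 1.01 TPM (SD, n = 3 each). It was at 144, 177 and 115 TPM in uninduced and at 35.3, 33.3 and 34.0 TPM in induced replicates 1, 2 and 3. Its log2 change was -2.03 (SE 0.19, limma adjusted p 0.000564) and -1.63 after median-of-ratios scaling (limma adjusted p 0.000791), and it passed under each of the alternatives run. Ackr3, the other CXCL12 receptor gene, was listed at 0 in all 6 libraries.

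Cd44 (ENSMUSG00000005087; chr2:102811141-102901665, minus strand) was at 33.7, 41.1 and 23.0 TPM in uninduced replicates 1, 2 and 3 and at 20.2, 26.7 and 28.2 TPM in induced replicates 1, 2 and 3. The groups overlapped, with uninduced replicate 3 inside the induced range. The log2 change was -0.34 (SE 0.26, 95% interval -0.92 to 0.23, limma adjusted p 0.421), close to the median gene's -0.35. After scaling it was 0.051 (limma adjusted p 0.924). The 9 annotated transcripts of Cd44, which include splice variants of its stem region, share 1 value.

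Selplg (ENSMUSG00000048163; chr5:113818536-113832644, minus strand) encodes PSGL-1. It was at 43.8, 44.8 and 50.4 TPM in uninduced and at 40.4, 44.6 and 45.3 TPM in induced replicates 1, 2 and 3, with overlap. The log2 change was -0.091 (SE 0.18, limma adjusted p 0.777) with a 95% interval of -0.49 to 0.30. After scaling it was 0.31 (limma adjusted p 0.355).

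Jam3 (ENSMUSG00000031990; chr9:27097384-27155421, minus strand) encodes JAM-C, which holds stem cells to stromal cells that carry its partner JAM-B. It was at 7.29, 14.9 and 6.71 TPM in uninduced replicates 1, 2 and 3 and at 11.6, 15.5 and 11.4 TPM in induced replicates 1, 2 and 3. Uninduced replicate 2 lay within the induced range and the other uninduced libraries below it. The log2 change was 0.45 (SE 0.33, 95% interval -0.29 to 1.19, limma adjusted p 0.413), and 0.82 after scaling (limma adjusted p 0.163). With a library removed it lay between 0.26 (without uninduced replicate 3) and 0.78 (without uninduced replicate 2) on the deposited scale. Jam2, which encodes JAM-B, was at 2.29 ± 0.457 and 3.23 ± 1.87 TPM (SD, n = 3 per group, limma adjusted p 0.701).

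Robo4 (ENSMUSG00000032125; chr9:37401897-37415115, plus strand) encodes a Roundabout-family receptor of endothelial and stem cells that takes part in stem cell lodging in the marrow. It was at 9.70, 12.3 and 11.9 TPM in uninduced and at 14.1, 10.5 and 15.4 TPM in induced replicates 1, 2 and 3. The groups overlapped through induced replicate 2. The log2 change was 0.21 (SE 0.26, 95% interval -0.37 to 0.80, limma adjusted p 0.634), and 0.59 after scaling (limma adjusted p 0.19). Removing a library gave 0.11 (without induced replicate 3) to 0.36 (without induced replicate 2) on the deposited scale. Of 10 endothelial markers Stab1 and Stab2 were at 0 in all 6 libraries and 5 were under 1 TPM in all of them. The summed level of the 10 was 42.7 to 62.4 TPM in uninduced and 51.6 to 63.7 TPM in induced libraries. Of 4 tested, 1 endothelial marker, Rasip1, rose on both scales. Their part in the Robo4 values was not tested.

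Vcam1 (ENSMUSG00000027962; chr3:116109949-116129688, minus strand), a ligand for VLA-4 made by stromal cells, endothelium, macrophages and some stem cells, was low and below the minimum mean for testing. It was at 0.418, 0.652 and 0.787 TPM in uninduced replicates 1, 2 and 3 and at 1.51, 0.829 and 0.697 TPM in induced replicates 1, 2 and 3. The groups overlapped, with induced replicate 1 the highest. The difference on the log2(TPM + 1) scale was 0.30, and with no expression filter its limma adjusted p was 0.58. The 12 macrophage markers summed to 6.40 to 19.8 TPM in uninduced and 13.3 to 20.9 TPM in induced libraries. Of the 12, 5 were tested and none passed on either scale. Only 3 were under 1 TPM in all 6 libraries, among them Marco and Siglec1, which were at 0. Fn1, which encodes fibronectin, the other VLA-4 ligand, was at 0.231, 3.16 and 0.464 TPM in uninduced replicates 1, 2 and 3 and listed at 0 in the 3 induced libraries, and was below the minimum for testing.

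**Figure D3:**
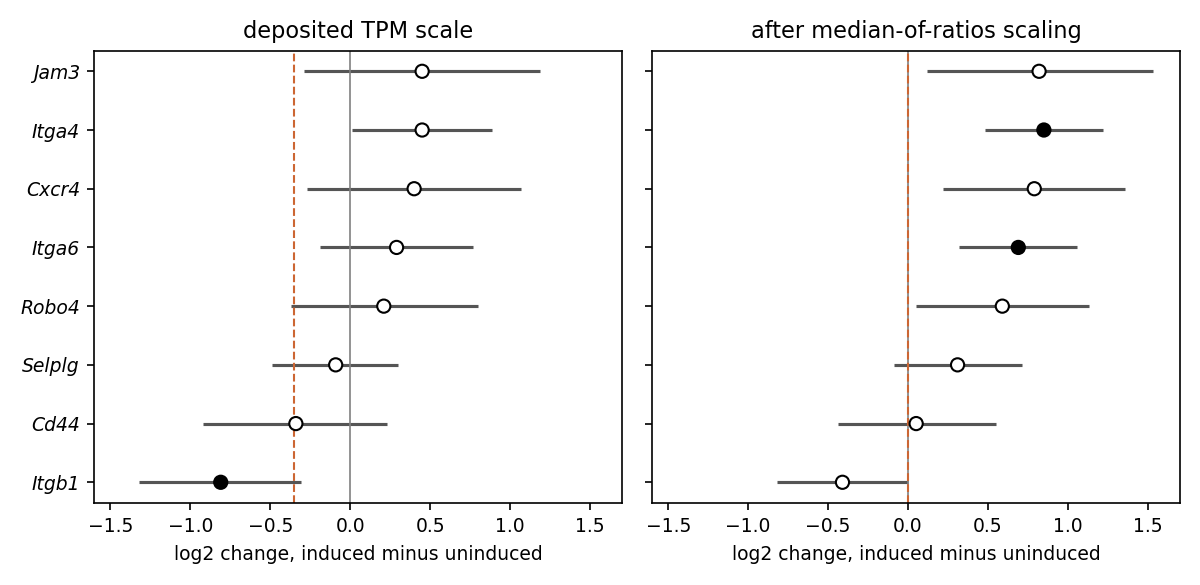
Log2 change (induced minus uninduced, on the log2(TPM + 1) scale) of the 8 tested genes with its 95% interval, on the deposited scale (left) and after median-of-ratios scaling (right). Filled points passed a limma adjusted p of 0.05, and the dashed line is the median of all 13470 tested genes. Itgb1 (-0.81) is the filled point on the left, and Itga4 (0.85) and Itga6 (0.69) are the filled points on the right.

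Other genes of adhesion and migration were read from the same fit in 9 lists. Together the lists held 239 genes of the table outside the 10, of which 147 were tested. On the deposited scale 5 were higher and 6 lower in induced cells, and after scaling 16 were higher and 1, Mif, lower. The 11 calls on the deposited scale were 7.48% of the 147, against 11.5% of all tested genes, and the 17 calls after scaling were 11.6%, against 5.98%. Those higher after scaling were 10.9% of the 147, against 2.88% of all tested genes. The median log2 change of the 147 on the deposited scale was -0.28 beside -0.35. An unadjusted p under 0.05 was found there for 49 of the 147, against 27.9% of all tested genes. By list this was 14 of 28 integrin activation and adaptor genes, 9 of 31 for chemokine receptor signalling, 7 of 20 for immunoglobulin-family, cadherin and junction genes, 7 of 16 for proteases and inhibitors, 6 of 10 for matrix and niche ligands and 1 of 7 for integrin subunits.

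Among other integrin subunits, 1 of 7 tested genes rose and none fell (median log2 change -0.21). Itgb5, a beta chain that pairs with the alpha-v chain, rose from 0, 0.468 and 1.77 TPM in uninduced to 7.61, 5.79 and 5.13 TPM in induced replicates 1, 2 and 3. Its log2 change was 2.15 (SE 0.46, limma adjusted p 0.0177), and it also passed after scaling (2.36, limma adjusted p 0.0187). With 1 uninduced library at 0, the size depends on the pseudocount, and the change was 3.71 with 0.1 TPM added and 0.97 with 5 TPM added. Without the expression filter the limma adjusted p was 0.0755. The call was lost on the deposited scale without uninduced replicate 2, induced replicate 1 or induced replicate 2, at limma adjusted p of 0.0516 to 0.0724, and after scaling with every library removed in turn except uninduced replicate 3.

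Of 28 tested genes for integrin activation and adhesion adaptors, 2 fell and none rose, with a median of -0.37. Tns1, a tensin that links integrin tails to actin, fell from 29.4 ± 1.40 to 13.8 ± 2.09 TPM (SD, n = 3 per group, log2 change -1.05, limma adjusted p 0.0159). Actn4, an actin crosslinker, fell from 66.2 ± 10.8 to 40.1 ± 3.83 TPM (SD, n = 3 per group, log2 change -0.70, limma adjusted p 0.0421). Both calls were lost after scaling, at -0.66 (limma adjusted p 0.095) and -0.30 (limma adjusted p 0.306). On the deposited scale the Tns1 call was also lost without induced replicate 1 (limma adjusted p 0.0594) or induced replicate 2 (limma adjusted p 0.0634), and the Actn4 call when any single library was left out. After scaling 3 other genes of this list were higher and none lower.

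No chemokine or lysophospholipid receptor gene passed among 5 tested of 18 (median -0.13, 1 with an unadjusted p under 0.05). Of 31 tested genes of chemokine receptor signalling, 1 fell and none rose (median -0.24). Dock2, which activates the GTPase Rac downstream of chemokine receptors, fell from 86 ± 5.25 to 55.8 ± 5.46 TPM (SD, n = 3 per group, log2 change -0.62, limma adjusted p 0.0416), a call lost after scaling (-0.22, limma adjusted p 0.387) and when any single library was left out. After scaling the list's 1 call was Grk2, a kinase that desensitises chemokine receptors, named after its values were seen. It was at 82.9, 86.9 and 71.3 TPM in uninduced and at 87.3, 93.9 and 113 TPM in induced replicates 1, 2 and 3, without overlap. It did not pass on the deposited scale (0.28, limma adjusted p 0.327) and was higher after scaling (0.68, limma adjusted p 0.0212). That call held without induced replicate 1 and was lost with the removal of any other library, at limma adjusted p of 0.0526 to 0.081.

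None of 21 tested selectin, sialomucin and selectin-ligand enzyme genes passed on the deposited scale (median -0.15, 3 with an unadjusted p under 0.05), and 2 were higher after scaling. One of these was Cd34, a sialomucin gene chosen for mention after its values were seen. It was at 55.9, 43.8 and 48.8 TPM in uninduced and at 61.5, 69.3 and 83.6 TPM in induced replicates 1, 2 and 3, without overlap (log2 change 0.52, limma adjusted p 0.110, and 0.92 after scaling, limma adjusted p 0.0204). The scaled call held without uninduced replicate 1 or induced replicate 1 and was lost without any of the other 4 libraries, at limma adjusted p of 0.0518 to 0.0799.

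Of 20 tested immunoglobulin-family, cadherin and junction genes, 1 rose and none fell (median -0.23). Tjp1, which encodes the junction scaffold ZO-1, rose from 2.56 ± 0.835 to 8.48 ± 1.97 TPM (SD, n = 3 per group, log2 change 1.42, limma adjusted p 0.03). The call held after scaling (1.75, limma adjusted p 0.0146). On the deposited scale, leaving out any single library took its limma adjusted p to 0.0518 to 0.103. After scaling the call was lost without uninduced replicate 3, induced replicate 1 or induced replicate 3, and 4 genes of this list were higher, among them, chosen after their values were seen, Pecam1 (1.2, limma adjusted p 0.032) and Icam1 (0.90, limma adjusted p 0.0339). Pecam1 was at 19.4 ± 5.10 and 34.1 ± 4.94 TPM and Icam1 at 15.5 ± 2.00 and 22.5 ± 2.44 TPM (SD, n = 3 each), with adjusted p of 0.0661 and 0.171 on the deposited scale (limma). After scaling the Pecam1 call held without uninduced replicate 3 and was lost when any other library was removed (limma adjusted p up to 0.116). The Icam1 call was lost whichever library was removed (limma adjusted p 0.0561 to 0.108).

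No Robo, Slit or guidance receptor gene passed among 9 tested of 22 (median -0.38, 1 with an unadjusted p under 0.05). Slit2, which encodes a ligand of Roundabout-family receptors, was at most 1.21 TPM in any library.

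Of 10 tested matrix and niche ligand genes, 1 rose and 2 fell, with a median of 0.20, and after scaling 2 were higher and 1 lower. Besides Mif, Lamc1, the gamma-1 chain of most laminins, fell from 8.66 ± 1.11 to 2.92 ± 1.20 TPM (SD, n = 3 per group, log2 change -1.34, limma adjusted p 0.036), a call lost after scaling (-1.01, limma adjusted p 0.103) and when any library but induced replicate 3 was left out. Col4a2, a collagen IV chain of basement membranes, rose from 23.4 ± 3.82 to 44.5 ± 2.16 TPM (SD, n = 3 per group, log2 change 0.91, limma adjusted p 0.0202, and 1.30 after scaling, limma adjusted p 0.00404). The Col4a2 call held without uninduced replicate 2 or 3 and was lost on the deposited scale when any other library was left out, at limma adjusted p of 0.0582 to 0.0747.

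Among 16 tested proteases and inhibitors that act on adhesion molecules, 2 rose and 1 fell (median -0.30), and after scaling 3 were higher and none lower. Prtn3, a serine protease of granules, rose from 18.9 ± 2.50 to 42.3 ± 6.18 TPM (SD, n = 3 per group, log2 change 1.12, limma adjusted p 0.0114, and 1.51 after scaling, limma adjusted p 0.00457). Without induced replicate 2 its limma adjusted p on the deposited scale was 0.0579. Adam10, a membrane protease that sheds CD44 among other proteins, rose from 39.9 ± 6.56 to 65.1 ± 7.70 TPM (SD, n = 3 per group, log2 change 0.70, limma adjusted p 0.0476, and 1.10 after scaling, limma adjusted p 0.00483). The Adam10 call was lost on the deposited scale when any single library was left out and held after scaling. Serpinb1a, an inhibitor of granule proteases, fell from 15.1 ± 4.80 to 4.0 ± 2.73 TPM (SD, n = 3 per group, log2 change -1.77, limma adjusted p 0.0251), a call lost after scaling (-1.41, limma adjusted p 0.112) and with the removal of uninduced replicate 1 or 3 or of induced replicate 1 or 3.

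Other settings ended calls of these lists on the deposited scale. Without the expression filter Actn4, Adam10, Lamc1, Serpinb1a and Tjp1 did not pass, as Itgb5 did not, at limma adjusted p of 0.068 to 0.101. Without the variance trend the calls of Actn4, Adam10, Col4a2, Dock2 and Serpinb1a were lost, at limma adjusted p of 0.0561 to 0.133. With 5 TPM added, the changes of the low genes were smaller, at -0.79 for Lamc1, -1.17 for Serpinb1a and 0.83 for Tjp1.

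**Figure D4:**
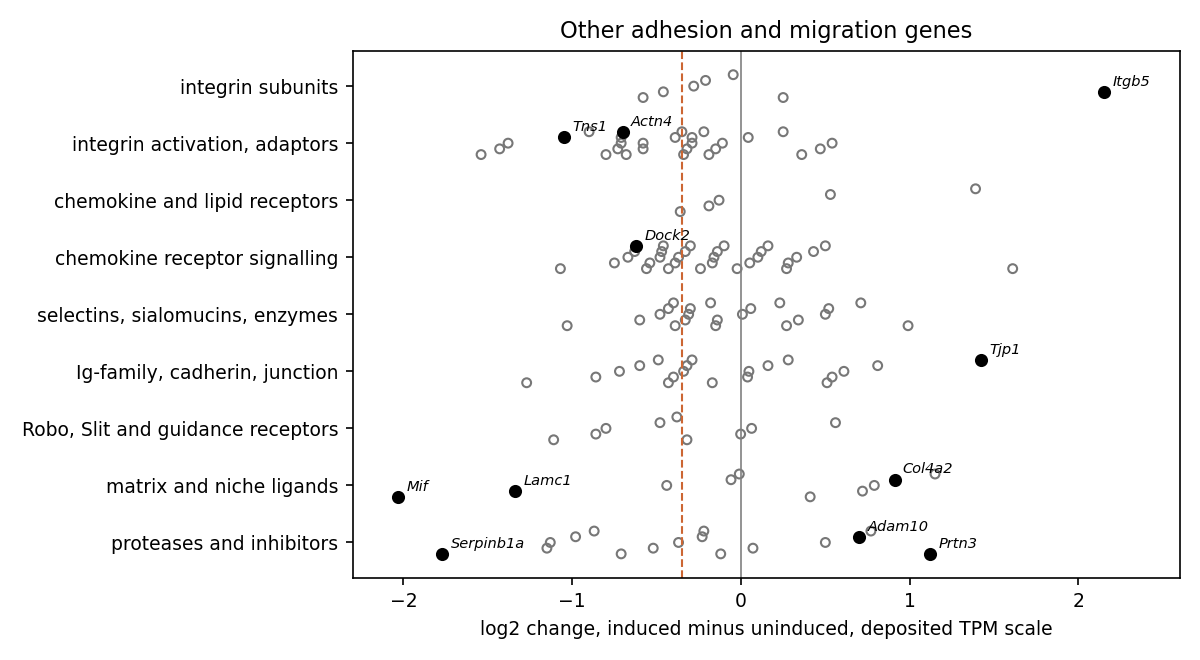
Log2 change (induced minus uninduced, deposited scale) of the 147 tested genes in 9 lists of adhesion and migration genes, a point per gene. Filled, named points passed a limma adjusted p of 0.05, the dashed line is the median of all tested genes (-0.35), and the vertical spread within a list has no meaning. The 11 filled points include Mif (-2.03) at the left and Itgb5 (2.15) at the right.

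Marker genes of the sort and of other cell types were read beside these values. The summed level of 10 erythroid markers was 59.8 to 75.4 TPM in uninduced and 408 to 470 TPM in induced libraries, and 6 of 9 tested rose on both scales. Of 5 tested megakaryocyte and platelet markers 2 rose on both scales and 1 fell on the deposited scale alone, with sums of 83.1 to 118 and 106 to 116 TPM. Neutrophil markers summed to 197 to 214 and 108 to 134 TPM, with 1 of 8 tested lower on the deposited scale and none after scaling. T- and NK-cell markers summed to 5.84 to 16.3 TPM in uninduced and 0.253 to 0.444 TPM in induced libraries, and the 1 tested, Nkg7, fell on both scales. B-cell markers summed to 4.35 to 9.86 and 3.11 to 3.85 TPM, and the 1 tested did not pass. Cd79a, Ebf1, Cd3e and Trac were among those at 0 in all 6 libraries. The 6 multipotent progenitor markers summed to 51.3 to 63.0 TPM in uninduced and 69.0 to 88.5 TPM in induced libraries. Of these, Dntt and Il7r were at 0 in all 6 libraries, none of 3 tested passed on the deposited scale, and 1, Cd34, was higher after scaling. Stem cell markers summed to 410 to 574 TPM in uninduced and 560 to 601 TPM in induced libraries, and of the 10, 4 rose and 2 fell by the deposited values, whereas 5 rose and none fell after scaling. What part these differences have in the adhesion genes was not tested.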

How the data were processed

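Total RNA of sorted stem cells, isolated with a kit for single-cell amounts, went into stranded total-RNA libraries for paired-end sequencing, per the labels' protocols. Per the submitters' processing notes, HISAT2 and StringTie were used with build GRCm38, and versions, annotation and strand settings are not given in the sources used here. The authors deposited TPM values per gene in a single table, which holds 60496 rows. A GC content column in percent was also deposited and was not used. TPM keeps no depth, so depth is unknown and no counting interval can be given. Rows were summed per gene ID to 55471 IDs, and 5025 rows repeated an ID.

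Libraries were grouped by title. Values were put on the log2(TPM + 1) scale and tested in R 4.3.3 by limma 3.58.1 (empirical Bayes moderation, variance trend, two-sided), over the 13470 genes whose mean reached 1 TPM, with Benjamini-Hochberg adjustment over all of them. Fold changes on this scale understate changes of low genes. On simulated data for this comparison, over 13470 genes, 86% of changes of 2 log2 units and 25% of changes of 1 log2 unit were recovered, and 9 of 120 calls were false. The changes were placed only in genes well above 1 TPM, 100 genes per size, without a shift of the median gene. Recovery in lower genes, or under such a shift, was not simulated. The 10 genes, the 9 pathway lists and the marker lists (stem, progenitor, cycling, endothelial, stromal, macrophage, neutrophil, erythroid, megakaryocyte, B, T and NK cell) were chosen with earlier results of these data known. From each pathway list the 3 largest changes past the threshold are named, with partners and ligands of the 10 genes. Ratios were compared by exact permutation over libraries. Alternatives were pseudocounts of 0.1 and 5, other filters, scalings and weights, no variance trend, the first row of each ID, a fit blocked on replicate number, and leave-one-out fits. The block with scaling, leaving out libraries with scaling, and the ratios were added after seeing the data. Gene positions come from GENCODE M21 (GRCm38).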

Additional observations from a re-analysis of the deposited data

How the results depend on the processing

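The number of genes passing, 1549, was 752 without the expression filter, 806 with median-of-ratios scaling, 814 with quantile normalization, 944 after rescaling to nuclear protein-coding genes (465 higher and 479 lower) and 767 without the variance trend. Of the 10 niche genes the 1 that passed, Itgb1, became 0 without the filter and without the trend, and 2, Itga4 and Itga6, under each of the 3 rescalings. For the lists the 11 calls became 6 without the filter, 17 with median-of-ratios scaling, 17 with quantile normalization and 21 after the protein-coding rescaling. With each library left out in turn, 611 to 1276 genes passed on the deposited scale and 331 to 469 after median-of-ratios scaling, with 0 to 1 of the niche genes on either, and 2 to 7 and 6 to 10 list genes. The scalings move the median of all genes from -0.35 to between -0.0048 and 0.022, and fewer libraries were fitted when a library was left out; otherwise the cause was not tested.

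A fit with the replicate block passed 902 genes, 0 niche genes and 5 list genes, and with the block and median-of-ratios scaling 451, 0 and 9. Itgb1 had a limma adjusted p of 0.0936 with the block. Same-numbered libraries share only a number: their deviations from the group means correlated at 0.0215, -0.0152 and 0.0172 for numbers 1, 2 and 3, and not every library correlated best with its own number.

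Signs turned for genes that passed in no setting. Cd44 became 0.051 with median-of-ratios scaling (with or without the block), 0.059 with quantile normalization and 0.080 after the protein-coding rescaling, and ranged from -0.57 to 0.20 over both scales without a library. Selplg became 0.31 (with or without the block), 0.30 and 0.34 in the same order, and ranged from -0.13 to 0.44. Itgb7 became 0.12 (with or without the block), 0.12 and 0.15, and ranged from -0.69 to 0.46. Jam2 ranged from -0.054 to 0.81 without a library. Depth is unknown, which limits Vcam1, Itga9 and the other genes near 1 TPM most.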
